A study of Sus scrofa with 6 samples.

Results

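The WNT family was examined here as 41 genes of 24358 in the deposited gene table: 17 WNT ligands, 10 Frizzled (FZD) receptors, the 2 co-receptors *LRP5* and *LRP6*, the 2 genes of ligand secretion, *PORCN* and *WLS*, and 10 secreted inhibitors of the DKK, SFRP, *FRZB* and *WIF1* group. Members were taken by gene name, apart from *LRP5*, which the table lists only under its identifier ENSSSCG00000012885 and its description. The libraries were made from single pig (*Sus scrofa*) embryos collected at day 5, which the labels call blastocysts. The 3 control embryos were not injected. The 3 *CARM1* KD embryos grew from oocytes that had received about 10 pl of 50 μM siRNA against *CARM1*, the gene of an arginine methyltransferase of histone H3. No strain, sex or age of animal is given, and the sources do not say whether the sequenced embryos were fertilized or parthenogenetic. None of the 6 libraries came from an embryo injected with negative control siRNA, so injection itself and loss of *CARM1* cannot be told apart.

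WNT proteins are secreted ligands that need a lipid, which porcupine (*PORCN*) attaches, and a carrier to the cell surface, Wntless (*WLS*). A ligand binds a Frizzled receptor and, in the β-catenin branch, LRP5 or LRP6, after which β-catenin escapes destruction and acts with TCF and LEF factors on target genes. Other branches through Frizzled receptors set planar cell polarity. Several DKK proteins block LRP5 and LRP6, whereas SFRP proteins, FRZB and WIF1 bind the ligands. In the mouse, blastocysts form without secreted WNT ligands, and the pathway is needed later, at gastrulation.

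The counts per library ranged from 26341924 to 41727594. *CARM1* had 1.96, 4.54 and 1.26 FPKM (fragment counts scaled for gene length and for the mapped fragments of the library) in control 1, control 2 and control 3, and 0.130, 0.150 and 0.274 FPKM in *CARM1* KD 1, *CARM1* KD 2 and *CARM1* KD 3, so its level was lower wherever siRNA was injected. Values below follow this order of embryos. In whole embryos, fewer cells of a type and less RNA per cell cannot be told apart. The embryos stood apart in composition. Transcripts typical of oocytes, such as *BMP15* and *ZP4* (13 of 14 listed genes found), summed to 871, 4752 and 205 FPKM in the controls and to 367, 36.9 and 2259 FPKM in the *CARM1* KD embryos. The 8 trophectoderm markers summed to 106, 6.63 and 149 FPKM in the controls and 240, 355 and 49.6 FPKM in the *CARM1* KD embryos. In control 2 and *CARM1* KD 3, the embryos highest in these transcripts, the epithelial keratin gene *KRT18* had a count of 0 and *KRT8* at most 0.0484 FPKM, against 7.54 FPKM or more of each in the other 4 embryos. Of the other genes of that list, *DAB2*, *GATA2* and *GATA3* were also at 0 in *CARM1* KD 3. *DAB2* had 1.63 FPKM in control 2 and 7.39 to 77.5 FPKM in the other 4 embryos. *TEAD4* and *TFAP2C* did not follow the keratins in *CARM1* KD 3. There *TEAD4* was at its highest (14.5 FPKM). *TFAP2C* was at 35.1 FPKM there, against 0.586 FPKM in control 2 and 27.9 to 50.1 FPKM in the other 4. *CDX2*, the defining trophectoderm factor, was at 0 in 4 embryos and reached at most 0.445 FPKM, and *GATA3* was at most 1.53 FPKM. The 6 primitive endoderm markers summed to 10.5 to 24.3 FPKM in the controls and 14.5 to 56.7 FPKM in the *CARM1* KD embryos. Of these, *SOX17* was at 0 in all 6 embryos, whereas *GATA6* had 12.7 to 50.5 FPKM in 5 and 0 in control 2. *GATA4* was highest in *CARM1* KD 3 and control 2, at 9.91 and 9.13 FPKM, against 0.780 to 2.92 FPKM in the rest. The 6 inner cell mass markers had their lowest sum in control 2, at 45.2 FPKM, against 84.3 to 205 FPKM elsewhere. Mitochondrial genes took 46.0% of the counts in control 2 and 14.5% to 23.9% elsewhere. Markers of cumulus and granulosa cells (8 of 10 found, 0 of them at 1 FPKM in 2 libraries, *FSHR*, *AMH* and *FOXL2* at 0) summed to 0.117 to 0.722 FPKM in the controls and 0.209 to 1.42 FPKM in the *CARM1* KD embryos.

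Of the 41 genes, 20 reached 1 FPKM in 2 or more libraries, a share of 48.8%, against 43.7% of the whole table. Detection differed by role: 5 of 17 ligands passed, 7 of 10 Frizzled receptors, both co-receptors, both secretion genes and 4 of 10 secreted inhibitors. Only *FZD4*, *LRP6*, *WLS* and *WIF1* reached 1 FPKM in all 6 embryos. *WNT2*, *WNT8A*, *FZD8* and *SFRP5* had a count of 0 in every library, which allows up to 3 counts, or 0.0719 to 0.114 CPM (counts scaled by library total), for counting error alone. A further 4 genes reached 1 FPKM in a single embryo: *WNT10A* (2.09 FPKM, control 1), *WNT2B* (1.87, *CARM1* KD 3), *DKK3* (1.73, control 3) and *DKK4* (5.85, control 2). *WNT9A* peaked at 0.791 FPKM in *CARM1* KD 2. The remaining 16 genes, the silent 4 among them, stayed below 0.5 FPKM: *WNT2*, *WNT3A*, *WNT5A*, *WNT6*, *WNT7B*, *WNT8A*, *WNT9B*, *WNT11*, *WNT16*, *FZD1*, *FZD8*, *FZD9*, *DKK2*, *SFRP1*, *SFRP2* and *SFRP5*. Another 2 ligands, *WNT4* and *WNT5B*, are named in the table only by identifier and were not counted as members; their highest values were 0.225 and 0.439 FPKM.

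**Figure D1:**
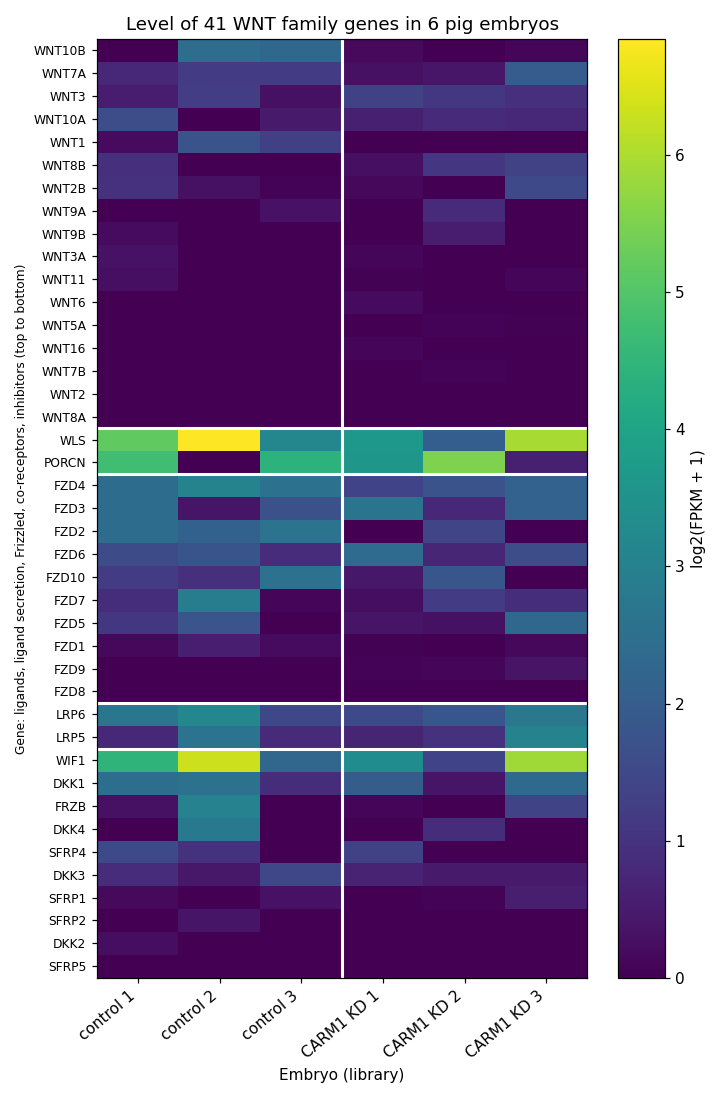
Colour gives log2(FPKM + 1) for each of the 41 WNT family genes (vertical axis, grouped by role) in each of the 6 embryos (horizontal axis), with the white vertical line between control and *CARM1* KD embryos. Most ligands are dark throughout, and the brightest cells are *WLS* and *WIF1* in control 2 (114 and 80.0 FPKM) and *CARM1* KD 3 (60.9 and 57.3 FPKM).

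Among the ligands, *WNT10B* and *WNT1* were the pair with the largest fitted differences. *WNT10B*, a ligand of the β-catenin branch known for holding back fat cell formation, was read in the controls at 0, 4.45 and 3.87 FPKM and in *CARM1* KD embryos at 0.125, 0 and 0.0790 FPKM. Thus 2 controls were high and control 1, with a count of 0, lay at or below all *CARM1* KD embryos, so the groups overlapped. Its estimated counts were 0, 905 and 713 against 35, 0 and 23. *WNT1*, the founding member of the family, had 0.145, 2.36 and 1.46 FPKM in the controls and a count of 0 in the 3 *CARM1* KD embryos. The same 2 controls were high for *WNT1*, and its groups did not overlap, though control 1 held only 4 counts and the 6 libraries together only 75. With 3 counts taken as the floor for the whole *CARM1* KD group, the summed counts of *WNT1* were at least 29.7-fold lower there, for counting error only.

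These 2 ligands are neighbours on chromosome 5 of the pig assembly Sscrofa11.1, and their records share bases. *WNT10B* (ENSSSCG00000000182) lies on the minus strand from 14995704 to 15013613 and *WNT1* (ENSSSCG00000000183) on the plus strand from 15012893 to 15014019. The shared stretch of 721 bases is 64.0% of the *WNT1* record and 4.03% of that of *WNT10B*. No strand-marking step is described for the libraries, so fragments from the shared stretch cannot be assigned to either gene with certainty, and the *WNT1* values are uncertain for that reason. Of the counts of *WNT10B*, 96.6% were placed on the transcript ENSSSCT00000044121 (5 exons, 3605 nucleotides) and 3.40% on ENSSSCT00000000191 (6 exons, 4839 nucleotides). In *CARM1* KD 3 all 23 counts sat on the longer transcript, whereas in *CARM1* KD 1 all 35 sat on the shorter. *WNT1* has a single transcript of 621 nucleotides.

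The log2 fold change (*CARM1* KD over control) was -5.56 for *WNT10B* with a standard error of 2.56. In the quasi-likelihood test of edgeR its unadjusted p was 0.0640 and its adjusted p 0.9999. For *WNT1* it was -8.13 with a standard error of 2.59 and an unadjusted p of 0.0222, the only member under 0.05, and its adjusted p was also 0.9999. Since *WNT1* was at 0 throughout 1 group, this fitted value depends on the prior count. *WNT1* and *WNT10B* reached 1 FPKM in control embryos only, so they entered the tested set through the group where they were high, and their direction among tested genes is partly set by that filter. Tested with no filter, *WNT1* had an unadjusted p of 0.0485 from edgeR. Its unadjusted p was 0.0504 without control 3, 0.0531 without *CARM1* KD 1, 0.0610 and 0.0603 with limma (pseudocounts of 1 and 0.1), 0.0619 with library weights and 0.131 with the replicate block from edgeR. *WNT10B* was chosen by the study as a differentially expressed gene on these same embryos, so its direction here is not independent of that choice. The unadjusted p of *WNT10B* from edgeR was 0.0253 with no filter and 0.0157 without control 1, the control at 0. It was 0.0898 to 0.135 without each other embryo and 0.338 with the replicate block. With library weights the fitted log2 fold change of *WNT10B* turned to 0.50, and in the other settings that tested it the value stayed negative.

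The groups overlapped for the other 3 detected ligands, as they did for *WNT10B*. An exact permutation test (2-sided) gave p = 0.3 for *WNT3*, 0.9 for *WNT7A*, 0.2 for *WNT8B*, 0.4 for *WNT10B* and 0.1 for *WNT1*. The exact permutation test thus separated the groups no better for *WNT10B* than for *WNT3* and *WNT8B*, whose fitted differences were smaller. *WNT3*, which the mouse embryo needs for its primitive streak, had 0.458, 1.35 and 0.227 FPKM in the controls and 1.56, 1.16 and 0.882 FPKM in the *CARM1* KD embryos. Its values lay between 0.227 and 1.56 FPKM, and control 2 fell inside the *CARM1* KD range. The whole *WNT3* record lies within that of *NSF* on the other strand, and *NSF* had 0.541 to 3.55 FPKM. *WNT7A*, a ligand known from limb and reproductive tract patterning, had 0.734, 1.27 and 1.33 against 0.230, 0.339 and 2.98 FPKM. Here *CARM1* KD 3 was above, and the other *CARM1* KD embryos were below, every control. *WNT8B*, a ligand of the developing forebrain, had 0.902, 0 and 0 FPKM against 0.210, 1.13 and 1.49 FPKM, with 2 controls at a count of 0. The log2 fold changes were 0.73 (standard error 1.22), -0.30 (1.27) and 1.61 (2.32) in that order. *WNT8B* reached 1 FPKM in *CARM1* KD embryos only, and without control 1, which left the controls at 0, its log2 fold change was 8.67 (unadjusted p = 0.0359 from edgeR).

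The pair of secretion genes held the highest levels of the family together with *WIF1*, and their profiles ran in opposite directions across the embryos. *WLS*, the carrier of lipid-bearing ligands, had 34.9, 114 and 8.04 FPKM in the controls and 11.6, 3.15 and 60.9 FPKM in the *CARM1* KD embryos. It was highest in control 2 and *CARM1* KD 3, and the groups overlapped widely. *PORCN*, the acyltransferase on chromosome X (42653723 to 42669957, plus strand), had 26.1, 0 and 20.4 FPKM against 11.4, 44.8 and 0.529 FPKM. It was nearly silent in the very 2 embryos that were highest in *WLS*, and highest in *CARM1* KD 2, where *WLS* was lowest. Control 2 had a count of 0 for *PORCN* and 22626 for *WLS*, while *CARM1* KD 2 had 4314 and 802. The group means of *WLS* were 52.4 ± 55.2 FPKM (SD, n = 3) in the controls and 25.2 ± 31.2 in the *CARM1* KD embryos, and those of *PORCN* were 15.5 ± 13.7 and 18.9 ± 23.1. The SD was as large as or larger than the difference of means for both genes. The log2 fold change was -1.45 for *WLS* (standard error 1.24) and 0.42 for *PORCN* (2.06). That of *WLS* was -0.05 without control 2 and -3.03 without *CARM1* KD 3. For *PORCN* it was -1.38 without *CARM1* KD 2 and -0.21 without control 2. The transcript ENSSSCT00000004200 of 12 exons held 98.0% of the *WLS* counts, and ENSSSCT00000026966 of 13 exons held 80.5% of those of *PORCN*.

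**Figure D2:**
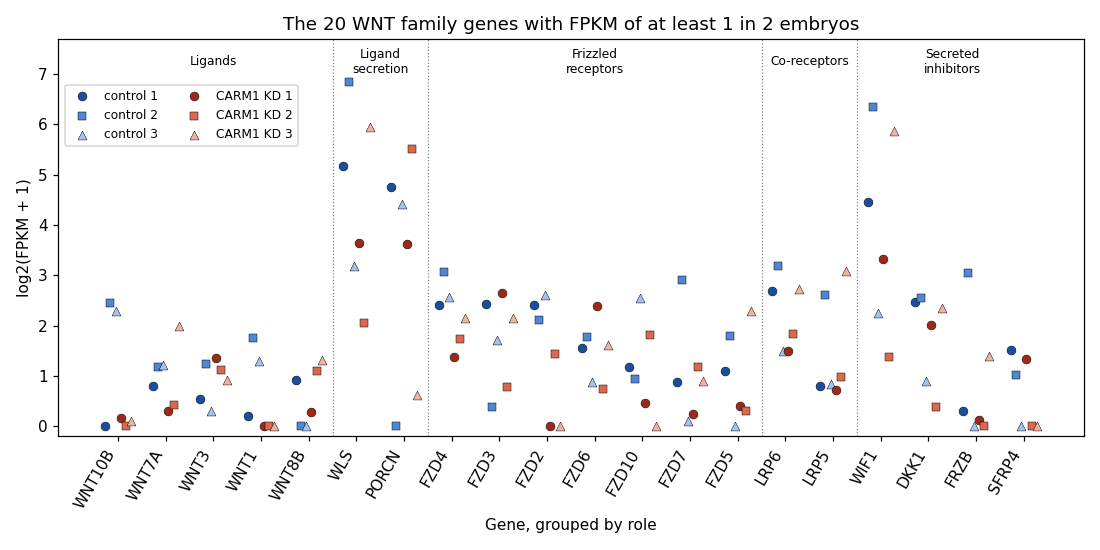
Each point is 1 embryo (blue for control, red for *CARM1* KD, shapes for replicate numbers), with log2(FPKM + 1) on the vertical axis and the 20 detected genes on the horizontal axis, grouped by role. Blue points stand above all red points for *FZD2* and *FZD4*, and *WNT1* is at 0 in all red points, while *WLS* and *WIF1* spread widely within both groups.

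Of the Frizzled receptors, *FZD4* and *FZD2* had groups that did not overlap, and neither passed the test. *FZD4*, which also serves as the receptor of Norrin in retinal vessels, had 4.34, 7.43 and 4.94 FPKM in the controls and 1.58, 2.34 and 3.44 FPKM in the *CARM1* KD embryos. Every control was above every *CARM1* KD embryo, on counts of 980 to 1629 and 469 to 1045. The means were 5.57 ± 1.64 and 2.45 ± 0.935 FPKM (SD, n = 3 each). *FZD2*, a receptor of both the β-catenin and the polarity branch, had 4.32, 3.33 and 5.07 FPKM in the controls and 0, 1.72 and 0 FPKM in the *CARM1* KD embryos. The groups were again apart, and 2 *CARM1* KD embryos had a count of 0. Its counts in the controls were 322, 174 and 239, and the *CARM1* KD 2 library held 115. The log2 fold change was -1.36 for *FZD4* (standard error 0.67, unadjusted p = 0.0775) and -2.76 for *FZD2* (standard error 2.31, unadjusted p = 0.269) from edgeR, each with an adjusted p of 0.9999. An exact permutation test (2-sided) on log2(FPKM + 1) gave p = 0.1 for each, the smallest p that 3 against 3 can give. The *FZD4* difference kept its direction without any 1 embryo, at -1.57 to -1.07. For *FZD2* the values without 1 embryo ran from -11.21 to -2.25, the former without *CARM1* KD 2, which left the *CARM1* KD group at 0. The unadjusted p of *FZD2* differed between tools: it was 0.0105 and 0.0160 with limma (pseudocounts of 1 and 0.1), 0.00924 with library weights and 0.00297 from edgeR without *CARM1* KD 2.

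*FZD4* (ENSSSCG00000014920, chromosome 9, 20712717 to 20722403, minus strand) shares 458 bases, 4.73% of its length, with *TMEM135* on the plus strand. The *TMEM135* values were 4.41, 7.96 and 4.33 FPKM in the controls and 7.35, 3.96 and 5.71 in the *CARM1* KD embryos, and these groups overlapped. *FZD2* (ENSSSCG00000029838, chromosome 12, 18740653 to 18742350, minus strand) shares no bases with another record and has 1 transcript of 1 exon.

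The other 5 detected Frizzled genes overlapped between the groups. *FZD3*, a receptor of axon guidance and planar polarity, had 4.36, 0.305 and 2.26 against 5.27, 0.707 and 3.43 FPKM. *FZD6*, its close relative in polarity, had 1.96, 2.44 and 0.829 against 4.27, 0.681 and 2.05 FPKM. In both genes *CARM1* KD 1 was the highest embryo. *FZD10* had 1.27, 0.919 and 4.87 against 0.369, 2.53 and 0 FPKM. *FZD7*, the leading Frizzled of human pluripotent stem cells, had 0.852, 6.50 and 0.0715 against 0.189, 1.27 and 0.855 FPKM. Its high value came from control 2 alone. *FZD5* had 1.15, 2.47 and 0 against 0.315, 0.227 and 3.93 FPKM, with *CARM1* KD 3 above and the other *CARM1* KD embryos below control 1 and control 2. Of the 7 tested Frizzled genes 5 had a lower and 2 a higher fitted value in the *CARM1* KD embryos, with a median log2 fold change of -1.22. Of all tested genes 44.7% had a lower fitted value, and their median log2 fold change was 0.10. Without control 2 the log2 fold change of *FZD7* was 0.72 and that of *FZD5* was 1.09. The log2 fold change of *FZD10* was -0.04 without control 3 and -3.72 without *CARM1* KD 2.

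Of the Frizzled genes too low to be tested, *FZD1* had 0.116, 0.484 and 0.156 FPKM in the controls and 0.0205, 0.0150 and 0.0974 FPKM in the *CARM1* KD embryos. *FZD9* had a count of 0 in the controls and 4, 8 and 28 counts in the *CARM1* KD embryos, at least 11.2-fold higher by summed counts if the control group as a whole is given the floor of 3. In neither gene did the groups overlap, on at most 70 counts in any library.

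Summed over the 10 genes, the Frizzled level was 18.4, 23.9 and 18.2 FPKM in the controls and 12.0, 9.57 and 14.1 FPKM in the *CARM1* KD embryos. This was the only role whose summed levels did not overlap between the groups. The means were 20.1 ± 3.24 and 11.9 ± 2.26 FPKM (SD, n = 3 each), a ratio of 0.591, and no test was made of a sum over chosen genes. In TMM-scaled CPM the sums were 85.4, 136 and 77.3 against 63.5, 41.5 and 67.6, also without overlap. With *FZD2* and *FZD4* removed, which was chosen after their values were seen, the sums were 9.70, 13.1 and 8.19 against 10.5, 5.51 and 10.6 FPKM, and the groups overlapped.

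**Figure D3:**
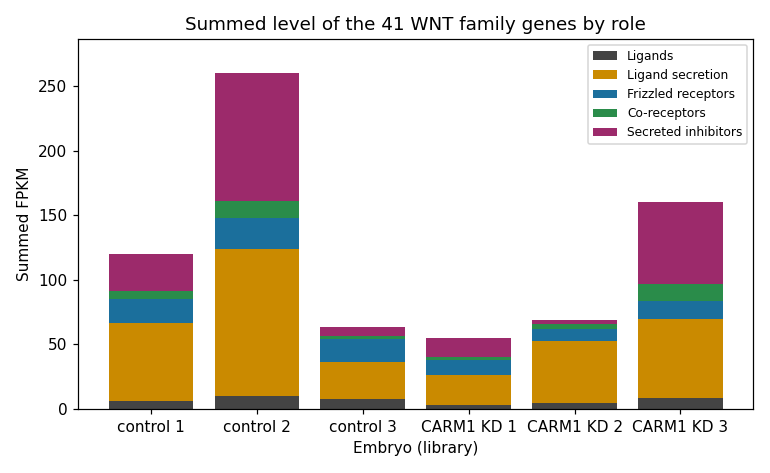
Stacked bars show summed FPKM (vertical axis) of the 41 genes by role in each embryo (horizontal axis). The tall bars of control 2 (261 FPKM) and *CARM1* KD 3 (161 FPKM) consist mostly of *WLS* and *WIF1*, and the Frizzled layer is 18.2 to 23.9 FPKM thick in the controls and 9.57 to 14.1 FPKM in the *CARM1* KD embryos.

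The co-receptors varied with the embryo more than with the group. *LRP6*, the main co-receptor in the mouse embryo, had 5.48, 8.04 and 1.82 FPKM in the controls and 1.84, 2.58 and 5.60 FPKM in the *CARM1* KD embryos. *LRP5*, known for its role in bone mass, had 0.735, 5.14 and 0.785 against 0.649, 0.973 and 7.44 FPKM. *LRP5* was thus below 1 FPKM in 4 embryos and high in control 2 and *CARM1* KD 3, where *WLS* was also highest. The log2 fold changes were -0.82 (standard error 0.80) for *LRP6* and 0.04 (1.18) for *LRP5*. Of the *LRP5* counts pooled over the 6 embryos, 37.3%, 35.6% and 27.0% fell on 3 transcripts of 21 to 23 exons. Embryos differed in the transcript used: the one with 35.6% had 1624 of its 1664 counts in *CARM1* KD 3 and 0 in the controls. The one with 27.0% had 0 in control 1, *CARM1* KD 1 and *CARM1* KD 3. A single *LRP6* transcript of 23 exons, ENSSSCT00000039050, held 96.7% of its counts.

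Among the secreted inhibitors, *WIF1* was by far the highest. *WIF1*, which binds WNT ligands through a domain of its own, had 21.1, 80.0 and 3.78 FPKM in the controls and 9.02, 1.61 and 57.3 FPKM in the *CARM1* KD embryos. Its highest library was 49.6 times its lowest, and both the highest and the next highest value came from the embryos richest in oocyte transcripts, 1 of each group. *DKK1*, which blocks LRP5 and LRP6, had 4.57, 4.87 and 0.862 against 3.06, 0.300 and 4.09 FPKM. *FRZB*, a Frizzled-like decoy, had 0.230, 7.26 and 0 against 0.0962, 0 and 1.62 FPKM. *SFRP4*, of the same decoy class, had 1.84, 1.02 and 0 against 1.54, 0 and 0 FPKM. None of the 4 separated the groups, and *FRZB* was again led by control 2 and *CARM1* KD 3. The log2 fold changes were -1.04 for *WIF1* (standard error 1.35), -0.69 for *DKK1* (1.23), -2.62 for *FRZB* (2.62) and -0.86 for *SFRP4* (2.74). Without control 2 those of *WIF1* and *FRZB* were 0.57 and 1.97. That of *SFRP4* was -9.36 without *CARM1* KD 1, which left the *CARM1* KD group at 0, and -0.08 without control 1. *DKK4* rested on 120 counts in control 2 and 23 in *CARM1* KD 2, with 0 in the other embryos.

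Across the family, no gene passed the adjusted threshold. Genes read at 1 FPKM in 2 libraries, 10639 in all, were tested with edgeR, and 0 of them (0%), hence 0 of the 20 WNT family genes, had an adjusted p under 0.05. The siRNA target *CARM1* was not called either, at a log2 fold change of -3.98 (standard error 1.02, unadjusted p = 0.00516, adjusted p = 0.9999 from edgeR). DESeq2 gave *CARM1* an adjusted p of 0.00474. A gene that edgeR does not call here may therefore still differ. At an unadjusted p under 0.05 there was 1 member, *WNT1*, of 20, against 0.686% of all tested genes (73 genes), 0.348% lower and 0.338% higher in the *CARM1* KD embryos. DESeq2 called 12 of 10390 genes (0.115%) at an adjusted p under 0.05 and no member; *FZD4*, *WNT1* and *WNT10B* had an unadjusted p under 0.05 by DESeq2, against 1.81% of all tested genes. Of the 20 members 14 had lower and 6 higher fitted values in the *CARM1* KD embryos, where 44.7% of all tested genes were lower. The median log2 fold change was -0.84 over the 20 members and 0.10 over all tested genes. These counts include *WNT1* and *WNT10B*, which passed the filter through the controls alone, and *WNT8B*, which passed through the *CARM1* KD embryos alone. The members' median was -0.18 without control 2 and -1.59 without *CARM1* KD 3.

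The groups did not overlap for 3 of the 20 tested members, *FZD2*, *FZD4* and, partly through the filter, *WNT1*, all lower in *CARM1* KD embryos, against 4.89% of all tested genes (1.07% lower and 3.82% higher). Counting every member with a count in any library, 5 of 37 did not overlap, 13.5%, against 4.39% of such genes in the whole table. Of the 5, 4 were lower and *FZD9* was higher, against 1.22% and 3.17% of such genes. With only control 1 and control 3 set against *CARM1* KD 1 and *CARM1* KD 2, leaving out the embryos richest in oocyte transcripts, 5 of the 20 members (25%) and 26.6% of all tested genes did not overlap. In that smaller comparison, whose overlap count was not planned, the share of members was thus near that of all genes. Smaller groups separate more easily by chance, so these shares cannot be set against those of the full comparison.

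**Figure D4:**
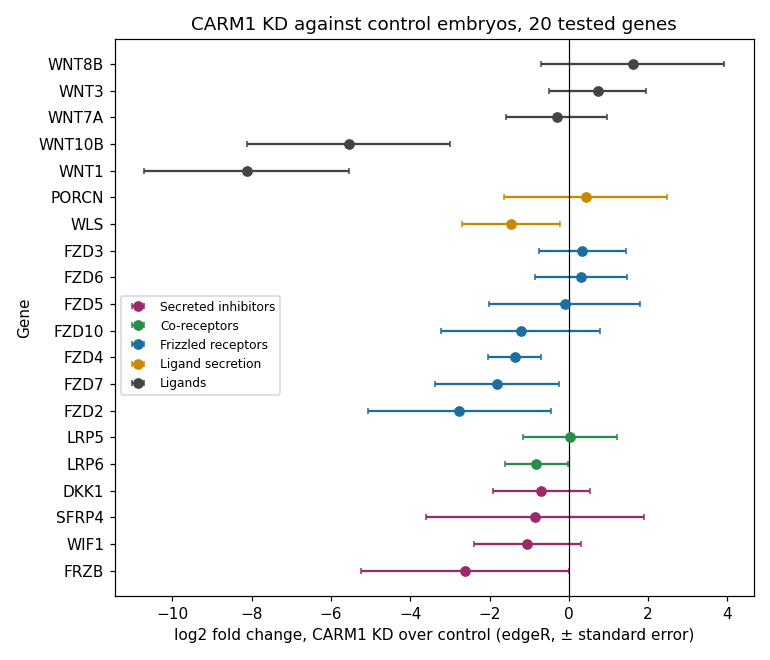
Points give the log2 fold change of each of the 20 tested genes (*CARM1* KD over control, horizontal axis), and bars its standard error from edgeR, with colours for role. Of the 20 points 14 lie left of 0, *WNT1* and *WNT10B* farthest at -8.13 and -5.56, and most bars cross 0.

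No member had a correlation with the summed oocyte transcripts that passed an adjusted p under 0.05, and the share of members with a strong rank correlation was near that of all tested genes. The order of embryos by *WLS* and by *WIF1* was the same as the order by summed oocyte transcripts in all 6, from control 2 at the top through *CARM1* KD 3, control 1, *CARM1* KD 1 and control 3 to *CARM1* KD 2. On log2(FPKM + 1) values, Spearman's rho was 1 for both genes (exact permutation p = 0.00278, adjusted p = 0.0586 over all 10639 tested genes). Pearson's r was 0.987 for *WLS* and 0.982 for *WIF1* (exact permutation p = 0.00139 each, adjusted p = 0.0672), and 0.988 and 0.998 without control 2 and *CARM1* KD 2, the embryos farthest from the median. Among all tested genes, 4.03% had a rho of 1 and 0.705% a rho of -1. *FRZB* and *DKK1* followed at rho = 0.986 and 0.943, with adjusted p of 0.107 and 0.121 by exact permutation. *PORCN* went the other way, at rho = -0.829 and r = -0.871, with adjusted p of 0.223 and 0.135 by exact permutation. A rho of at least 0.9 in size was found for 4 of the 20 members (20%) and for 14.7% of all tested genes. *WNT10B* had rho = 0.406 and *FZD4* 0.486, with adjusted p of 0.643 and 0.574 by exact permutation. With 3 embryos in each group, no correlation was computed within groups. In CPM in place of FPKM, chosen after the data were seen, rho stayed at 1 for *WLS* and *WIF1*. The part of the oocyte transcripts in the levels of these genes was not tested.

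**Figure D5:**
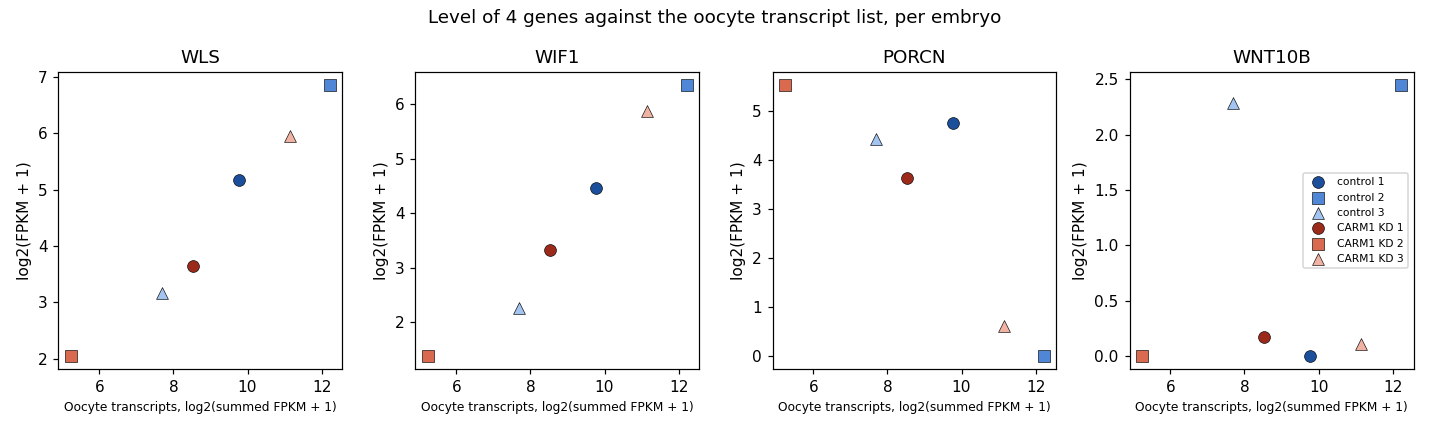
Each panel sets log2(FPKM + 1) of 1 gene (vertical axis) against log2(summed FPKM + 1) of the oocyte transcript list (horizontal axis), 1 point per embryo, blue for control and red for *CARM1* KD. *WLS* and *WIF1* rise along the axis in all 6 embryos (rho = 1), *PORCN* runs from 44.8 FPKM in *CARM1* KD 2 to 0 in control 2, and *WNT10B* is high in control 2 and control 3 only.

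Outside the family, 5 lists of other pathway genes held 103 genes, of which 63 were tested. Of these 34 had higher and 29 lower fitted values in the *CARM1* KD embryos, where 44.7% of all tested genes were lower. From edgeR 0 passed an adjusted p under 0.05, and the median log2 fold change was 0.20, against 0.10 over all tested genes. *GPC3*, a glypican that binds WNT proteins, was the only member of the lists at an unadjusted p under 0.05. It had 2.50, 4.51 and 5.75 FPKM in the controls and 0.266, 0.169 and 0.728 FPKM in the *CARM1* KD embryos. Its log2 fold change was -3.73 (standard error 1.09, unadjusted p = 0.00993, adjusted p = 0.9999 from edgeR). DESeq2 called it at an adjusted p under 0.05, and the study had also chosen it on these embryos.

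Among the 12 tested cell surface regulators, 5 were higher and 7 lower. *RSPO2*, an R-spondin that strengthens WNT responses by sparing Frizzled receptors from removal, was the highest, at 91.5, 181 and 8.43 FPKM in the controls and 17.0, 0 and 180 FPKM in the *CARM1* KD embryos. Control 2 and *CARM1* KD 3 again stood above the rest. *TMED2*, a cargo carrier of the early secretory pathway, had 0.0632 FPKM in control 2 and 41.8 to 68.7 FPKM in the other 5 embryos. *ATP6AP2*, a proton pump subunit and LRP6 partner, had 8.45 to 45.6 FPKM.

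In the cytoplasmic core, 14 of 20 tested genes were higher and 6 lower, at a median log2 fold change of 0.52. Of all tested genes 44.7% were lower, to be read beside this count and those of the lists that follow. The genes of highest mean level were *CSNK1A1* and *CSNK1G2*, casein kinases that phosphorylate β-catenin and LRP6 in that order, and *RNF146*, a ubiquitin ligase of the axin-tankyrase step. *CSNK1A1* had 26.2, 35.3 and 29.7 against 31.8, 64.5 and 57.5 FPKM. Of the nuclear factors, 12 of 16 were higher and 4 lower, with *EP300*, *TCF7L1* and *SMARCA4* at the highest levels. *TCF7L1*, the TCF factor that represses targets in pluripotent cells, had 6.51, 16.7 and 1.83 against 7.29, 2.75 and 15.3 FPKM, with control 2 and *CARM1* KD 3 high. Of 20 target genes only 6 were tested, 3 higher and 3 lower, at a median log2 fold change of -0.66. *JUN*, *FST* and *MYC* had the highest levels and were also the 3 lower genes. Their log2 fold changes were -2.20, -1.63 and -1.57 in that order, and the groups overlapped for each. *JUN* had 55.0 FPKM in control 2 and 1.65 to 6.95 FPKM elsewhere. Of the planar polarity genes, 3 of 12 were higher and 9 lower, at a median log2 fold change of -0.44. The highest levels were those of *PRICKLE4*, *RAC1* and *RHOA*, which were also the 3 higher genes, at log2 fold changes of 0.43, 0.46 and 0.41.

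In the lists 7 of the 63 tested genes had groups that did not overlap, against 4.89% of all tested genes (1.07% lower in *CARM1* KD embryos). *GPC3* was lower, and the other 6, named after their values were seen, were higher in *CARM1* KD embryos (3.82% of all tested genes): *AXIN2*, *BTRC*, *TNKS2*, *CHD8*, *CTBP1* and *RAC1*. *AXIN2* and *CTBP1* reached 1 FPKM in *CARM1* KD embryos only, and *GPC3* in controls only. They entered the tested set through the group where they were high, so their direction is partly set by that filter. *AXIN2*, a scaffold of β-catenin destruction and itself a common target of the pathway, had 0.669, 0 and 0.210 FPKM in the controls and 1.16, 1.20 and 0.776 FPKM in the *CARM1* KD embryos. *BTRC*, the ubiquitin ligase adaptor for β-catenin, had 7.51, 4.65 and 5.95 against 13.2, 9.31 and 9.75 FPKM. Both differences of means were larger than the SD within either group, and neither passed the test: the log2 fold changes were 1.85 (standard error 1.81, unadjusted p = 0.339) and 0.75 (standard error 0.60, unadjusted p = 0.249) from edgeR.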

How the data were processed

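Sample titles gave the groups and the replicate numbers, and day and siRNA dose from the study's methods. For 24358 genes and 47421 transcripts the authors deposited estimated counts and FPKM. TruSeq Nano libraries, HiSeq sequencing, mapping to the pig genome and Cufflinks are described. The submitters' processing notes differ: they list GRCh38.p10, a human build, and the tools HISAT2, StringTie, fastp, HOMER, ChIPseeker and edgeR, without versions. All 41 members overlapped the RefSeq gene of the same symbol in Sscrofa11.1. Where a count was 0 the deposited FPKM of 0.0001 was set to 0. For the 10 members with several transcripts and 20 counts or more, the gene FPKM equalled fragments over 1 fixed length in every library (within 1%), longer than most single transcripts.

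Estimated counts, already whole, went into the quasi-likelihood test of edgeR (TMM scaling, Benjamini-Hochberg adjustment over all genes, standard error as log2 fold change over the square root of F) for genes that reached 1 FPKM in 2 or more libraries. The common coefficient of variation was 1.12 with 4 residual degrees of freedom. Single genes were compared by exact permutation. All members that passed were named, with those whose groups did not overlap and *WNT10B*. From each pathway list, genes under an unadjusted p of 0.05 and the 3 highest were named. Members and lists were chosen with earlier results of these data known. Each library is a separate embryo, so p-values are set against the spread between single embryos. Of 6907 genes listed only by identifier, 951 took a symbol from an Ensembl name table and 719 from RefSeq. Tests were run in R 4.3.3 with DESeq2 1.42.0, limma 3.58.1 and edgeR 4.0.16, and other steps in Python 3.11.15 with scipy 1.17.1, pandas 2.3.3, matplotlib 3.10.9 and numpy 2.4.6. The alternatives were limma with a pseudocount of 1 or 0.1, DESeq2, other scalings, other filters, library weights, a replicate block and left-out libraries.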

Additional observations from a re-analysis of the deposited data

How the results depend on the processing

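Over the alternatives, 0 of the 20 members passed an adjusted p under 0.05, and 10 of the 20 never changed direction. Of 334 log2 fold changes, 304 kept their direction and 30 turned. The number of all genes at an adjusted p under 0.05 was 12 with DESeq2 and 0 otherwise. At an unadjusted p under 0.05 it was 193 with DESeq2, 243 with no filter, 37 with the stricter filter, 155 with library weights, 16 with the replicate block, 193 in control 1 and 3 against *CARM1* KD 1 and 2, and 49 to 122 without each embryo, against 73. The members at that threshold numbered 3 with DESeq2, 2 with no filter, 0 with the stricter filter, with the replicate block and in control 1 and 3 against *CARM1* KD 1 and 2, and 0 to 3 without each embryo. With limma and with library weights the count was 1 as well, but the member was *FZD2* in place of *WNT1*. The stricter filter tested fewer genes and left out *WNT1*. The labels do not say whether equal replicate numbers pair the embryos. Deviations from the group means correlated at 0.273, -0.485 and -0.552 for numbers 1, 2 and 3, which cannot settle it with 3 embryos per group. The members' median log2 fold change was -1.59 to -0.18 without each embryo. At 5 FPKM in 2 libraries, 5 members were detected, and at 0.1 FPKM, 28. In control 1 and 3 against *CARM1* KD 1 and 2, 2833 genes and 5 members had groups that did not overlap, a count that was not planned.

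With library weights the log2 fold change was -0.36 for *FZD3*, 0.92 for *FZD5*, -0.75 for *PORCN* and 0.50 for *WNT10B*. With the replicate block that of *PORCN* was -0.89. In control 1 and 3 against *CARM1* KD 1 and 2, it was -0.0856 for *FZD3* and 0.88 for *FZD7*. For *FZD5* it was 0.0305 with limma on log2(FPKM + 1), 0.26 with a pseudocount of 0.1 and 0.33 with total count scaling, which also gave 0.12 for *WNT7A*. For *LRP5* it was -0.24 with DESeq2 and with RLE size factors. Without each embryo in turn, the range was -5.87 to 1.97 for *FRZB*, -0.32 to 1.06 for *FZD3*, -2.27 to 1.09 for *FZD5*, -0.63 to 0.71 for *FZD6*, -2.67 to 0.72 for *FZD7*, -1.61 to 1.64 for *LRP5*, -1.38 to 0.98 for *PORCN*, -2.93 to 0.57 for *WIF1* and -2.00 to 0.25 for *WNT7A*. The cause of these turns was not tested.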
